A study of Mus musculus with 2 samples.

Results

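The genes described here serve antigen presentation or mark leukocytes. They were chosen by name: every entry of the deposited table whose symbol starts with H2-, the prefix of genes of the mouse major histocompatibility complex (MHC), and 28 named genes of antigen presentation, macrophages, Langerhans cells and mast cells. This gives 62 of the 21628 entries, 34 of them by prefix. RNAseq profiled 1 library of GFPhigh cells and 1 library of GFPlow cells, sorted by brightness of the Sox2GFP reporter, in which GFP follows expression of the transcription factor SOX2, from lingual epithelium of P0 mice. Pups were pooled, both populations came from the same reporter genotype, about 100000 cells were collected for each, and the labels give no treatment. The sort gated on GFP, autofluorescence and a dead-cell dye, and no leukocyte marker is described for it. With 1 library per population, no difference has a replicate check and no p-value is given.

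MHC class I molecules sit on nearly all nucleated cells. Their heavy chain pairs with beta-2 microglobulin and carries a peptide that the proteasome cuts in the cytosol and the TAP transporter brings into the endoplasmic reticulum. MHC class II molecules are made mainly by dendritic cells, macrophages and B cells, and load peptides from endosomes. Macrophages, Langerhans cells and mast cells are among the leukocytes that reside in or beneath oral epithelium. Mast cells are recognized by the proteases stored in their granules.

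Expression is given as FPKM (fragments scaled by transcript length and by all mapped fragments), so that levels of different genes can be set side by side. A fold is the ratio of the FPKM of the libraries. A gene was called higher in a population at 5 FPKM or more there and a fold of at least 1.5. The spacing of low FPKM gave estimated depths of about 27000000 reads for the GFPhigh and 36000000 reads for the GFPlow library, on which the approximate read numbers below rest. The labels give about 75000000 reads for each sample. Epithelial markers were high in both libraries, with Krt5 at 9667 FPKM in GFPhigh and 10422 FPKM in GFPlow cells and Epcam at 166 and 86.8 FPKM. All 6 markers of the basal keratinocyte list, which includes Krt5, were higher in GFPlow cells. Of these, 1 was called, Itgb4 at 424 FPKM in GFPhigh and 664 FPKM in GFPlow cells. Fibroblast markers were present in both libraries, with Col3a1 at 193 FPKM in GFPhigh and 966 FPKM in GFPlow cells.

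Of the 62 genes, 12 were listed at 0 in both libraries, 30 reached 1 FPKM in at least 1 library and 16 reached 5 FPKM. GFPhigh cells were called higher for 8 genes: Tapbp, Tap1, Tap2, H2-T22, H2-T23, Tpsb2, Mcpt4 and Cpa3. GFPlow cells were called higher for 1 gene, H2-Ab1. Over the 21590 entries analyzed, 4.72% were called higher in GFPhigh and 4.44% in GFPlow cells. Over the 10760 entries that reached 5 FPKM in either library, the corresponding shares were 9.48% and 8.9%, against 8 and 1 of the 16 genes. The median difference in log2(FPKM + 1), GFPhigh minus GFPlow, was 0.06 over the 50 genes above 0 and -0.02 over all genes above 0.

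**Figure D1:**
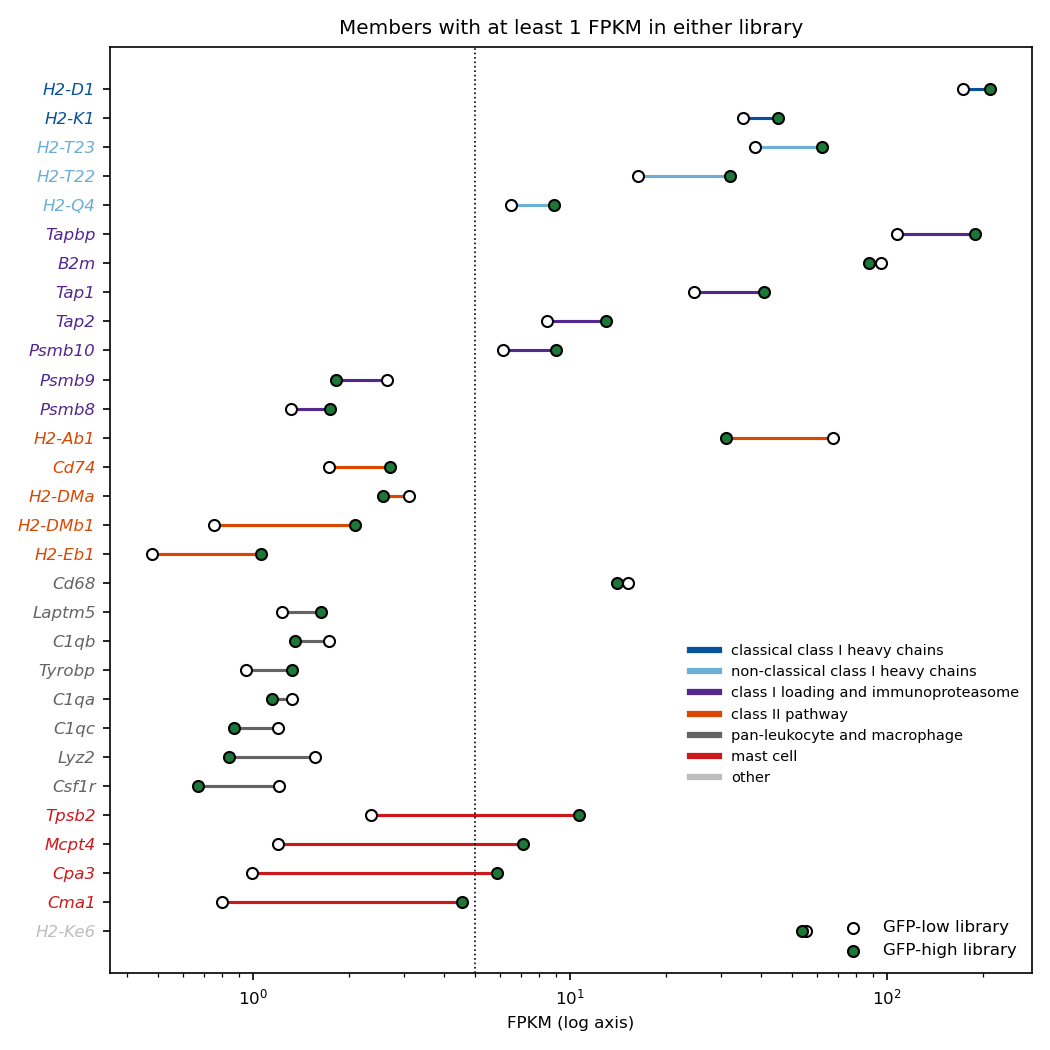
FPKM on a log axis of the 30 antigen presentation and leukocyte genes that reached 1 FPKM in at least 1 library, with a filled point for the GFPhigh library, an open point for the GFPlow library, a line colored by gene group between them, and a dotted line at 5 FPKM. The mast cell proteases show the widest gaps, for example Mcpt4 with 7.11 FPKM in GFPhigh and 1.20 FPKM in GFPlow cells, while H2-Ab1 lies the other way, with 30.9 and 67.4 FPKM.

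Promoter sequences of the class I genes are shown first, because these genes sit in 1 region of chromosome 17 and yet differ widely in level. The sequences are from RefSeq (GRCm38.p6), each written 5′ to 3′ on the strand of the gene, and windows from 250 bases before to 50 bases after a start site were available for 51 of the 62 genes. Capitals mark matches on either strand to GGATTCCCC, the core of the kappa B site of class I enhancer A, to the interferon response cores GAAANNGAA or GAANNGAAA, and to the Y box CTGATTGG. The spacing GAANNGAAA was added after the sequences had been read. The stretches of H2-K1 (chr17:34000322-34000466, minus strand), H2-D1 (chr17:35262915-35263058, plus strand) and H2-Q6 (chr17:35424669-35424812, plus strand) carry all 3 elements in the same order.

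H2-K1: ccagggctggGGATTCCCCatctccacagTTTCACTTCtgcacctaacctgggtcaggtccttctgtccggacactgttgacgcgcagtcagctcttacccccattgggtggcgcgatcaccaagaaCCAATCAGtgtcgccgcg
H2-D1: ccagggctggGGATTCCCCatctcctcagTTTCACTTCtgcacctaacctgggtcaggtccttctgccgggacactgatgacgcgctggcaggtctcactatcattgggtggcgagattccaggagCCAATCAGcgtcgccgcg
H2-Q6: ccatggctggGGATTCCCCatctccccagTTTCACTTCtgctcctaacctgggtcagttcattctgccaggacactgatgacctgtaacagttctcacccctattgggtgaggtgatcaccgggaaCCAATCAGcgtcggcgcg

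The kappa B core was found in the windows of 3 of the 51 genes, these 3, and in 0.326% of all 27025 genes with a window. The Y box was found in 19 of the 51 genes and in 4.70% of all genes. The interferon response core chosen beforehand, GAAANNGAA, was found in 4 of the 51 genes and in 9.76% of all genes. The spacing GAANNGAAA, added after these sequences had been read, was found in 9 of the 51 genes and in 8.68% of all genes. At least 1 of these cores, which can overlap each other, was in 13 of the 51 genes and in 16.8% of all genes. Because of the added spacing, the last 2 counts cannot show an excess among these genes. The motif GAGGAAGT, a core bound by the myeloid factor PU.1 and other ETS proteins, was found in 2 of the 51 genes, C1qc and H2-M10.2, and in 3.69% of all genes. The matches are descriptions of these letters and not of binding.

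H2-T22 (chr17:36042914-36042942, minus strand) and H2-T23 (chr17:36032736-36032834, minus strand) have the interferon response core in another sequence and lack the kappa B letters in their windows. The stretch between the divergent start sites of Tap1 and Psmb9 (chr17:34187331-34187555, plus strand, which is the Tap1 strand) is shown because it lies between the RefSeq starts of both genes. In GENCODE M21, Psmb9 starts further upstream, at 34187764, so that the stretch falls within that annotated gene.

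H2-T22: ttggcttagtTTCACTTTCgaatccccaa
H2-T23: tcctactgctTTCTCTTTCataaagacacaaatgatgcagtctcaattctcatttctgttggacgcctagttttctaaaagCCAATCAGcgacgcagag
Tap1 and Psmb9: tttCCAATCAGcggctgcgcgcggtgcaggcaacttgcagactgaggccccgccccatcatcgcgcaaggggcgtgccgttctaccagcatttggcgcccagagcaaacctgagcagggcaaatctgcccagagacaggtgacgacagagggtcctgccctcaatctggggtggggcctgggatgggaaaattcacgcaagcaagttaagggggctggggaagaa

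Classical class I heavy chains were well expressed in both populations and were not called. H2-D1 (ENSMUSG00000073411, chromosome 17, 35262730–35267499) had 211 FPKM in GFPhigh and 173 FPKM in GFPlow cells, a fold of 1.22, and was at rank 723 and 923 of the 21590 entries. H2-K1 (ENSMUSG00000061232, chromosome 17, 33996017–34000347) had 45.1 FPKM in GFPhigh and 35.2 FPKM in GFPlow cells, a fold of 1.28. The ratio of H2-D1 to H2-K1 was 4.68 within GFPhigh and 4.92 within GFPlow cells. Both chains were thus somewhat higher in GFPhigh cells, in nearly the same proportion to each other. Of the 50-nt windows of their transcripts, 14.3% for H2-D1 and 8.79% for H2-K1 also occur in transcripts of other genes.

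Among the 22 non-classical class I heavy chains, 3 reached 5 FPKM and 2 of these were called higher in GFPhigh cells. H2-T23, which encodes Qa-1, a ligand of inhibitory receptors on natural killer and T cells, had 62.5 FPKM in GFPhigh and 38.3 FPKM in GFPlow cells, a fold of 1.63. H2-T22, whose product is recognized by gamma delta T cells, had 31.9 and 16.4 FPKM, a fold of 1.95 and the largest among the class I heavy chains at 5 FPKM or more. H2-Q4 had 8.87 and 6.53 FPKM, a fold of 1.36. These 3 levels are uncertain: 29.8% of the H2-T23 windows, 44.7% of those of H2-T22 (first with H2-T10) and 24.3% of those of H2-Q4 are found in other genes' transcripts too, and an annotated antisense gene overlaps H2-T22 and H2-T23.

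The other 19 non-classical genes were at 0.23 FPKM or less in both libraries, and 9 of them were listed at 0 in both. H2-Q6, with the same promoter elements as H2-D1, had 0.14 FPKM in GFPhigh and 0.04 FPKM in GFPlow cells, about 7 and 3 reads. Of its windows, 35% are shared, so that its level is uncertain. H2-Q7 had 0.16 and 0.03 FPKM, about 6 and 1 reads, and 34.9% of its windows are shared. H2-T24 had 0.23 and 0.06 FPKM, about 12 and 4 reads. H2-M3, which presents N-formylated bacterial peptides, had 0.18 and 0.15 FPKM. H2-Q1, H2-Q2, H2-Q10 and H2-M5 were between 0.03 and 0.10 FPKM. H2-M2 (0.02 FPKM) and H2-M10.5 (0.03 FPKM) were above 0 in GFPlow cells only, each at about 1 read. H2-T3, H2-M1, H2-M9, H2-M11 and the other 5 H2-M10 genes made up those at 0.

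The peptide transporter and tapasin genes, which load class I molecules, were called higher in GFPhigh cells, and the light chain B2m was not. Tapbp (tapasin, which bridges TAP and the heavy chain; ENSMUSG00000024308, chromosome 17, 33915899–33929292) had 189 FPKM in GFPhigh and 108 FPKM in GFPlow cells, a fold of 1.75. Tap1 and Tap2, the subunits of the peptide transporter, had 41.0 and 24.6 FPKM (fold 1.67) and 13.0 and 8.44 FPKM (fold 1.54) in GFPhigh and GFPlow cells. The proportions within a library stayed close, with Tapbp at 4.61 times Tap1 in GFPhigh and 4.39 times in GFPlow cells, and Tap1 at 3.15 and 2.91 times Tap2. The call of Tap2 was lost, at a fold of 1.44, when each library was divided by its FPKM sum.

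B2m (ENSMUSG00000060802, chromosome 2, 122147686–122153083) had 87.9 FPKM in GFPhigh and 95.9 FPKM in GFPlow cells, which is 1.09-fold higher in GFPlow cells. It was thus at 0.416 times the FPKM of H2-D1 in GFPhigh and 0.554 times in GFPlow cells. The light chain and the main heavy chain therefore lay on opposite sides of equality, both short of the 1.5-fold limit.

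The immunoproteasome subunits, which replace the constitutive catalytic subunits after interferon exposure and in leukocytes, were low. Psmb10 had 9.05 FPKM in GFPhigh and 6.16 FPKM in GFPlow cells, a fold of 1.47, just under the limit. Psmb8 had 1.75 and 1.32 FPKM. Psmb9 had 1.82 and 2.65 FPKM and was the only subunit that was higher in GFPlow cells, by 1.46-fold. The constitutive subunits Psmb5 (63.8 and 75.2 FPKM), Psmb6 (380 and 364 FPKM) and Psmb7 (215 and 218 FPKM) were far above them in both libraries. Psmb6 was 209 times Psmb9 in GFPhigh and 137 times in GFPlow cells, while Psmb5 was 36.5 and 56.9 times Psmb8. Psmb9 and Tap1, which share the stretch printed above, stood 22.5-fold apart in GFPhigh and 9.27-fold apart in GFPlow cells, and their annotated 5′ ends overlap on opposite strands. The libraries were stranded, but whether strand was used for the FPKM is not given in the sources used here.

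Over the 7 genes of loading and the immunoproteasome, the median log2 difference was 0.49, 5 were higher in GFPhigh cells and 3 were called. Over the 15 class I heavy chains above 0, the median was 0.13, and 11 were higher in GFPhigh cells. That median was 0.01 without genes that share at least 20% of their windows, and 0.39 when the mean FPKM had to reach 1. The same median over all genes above 0 was -0.02. The FPKM of the 31 class I genes summed to 704 in GFPhigh and 517 in GFPlow cells.

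**Figure D2:**
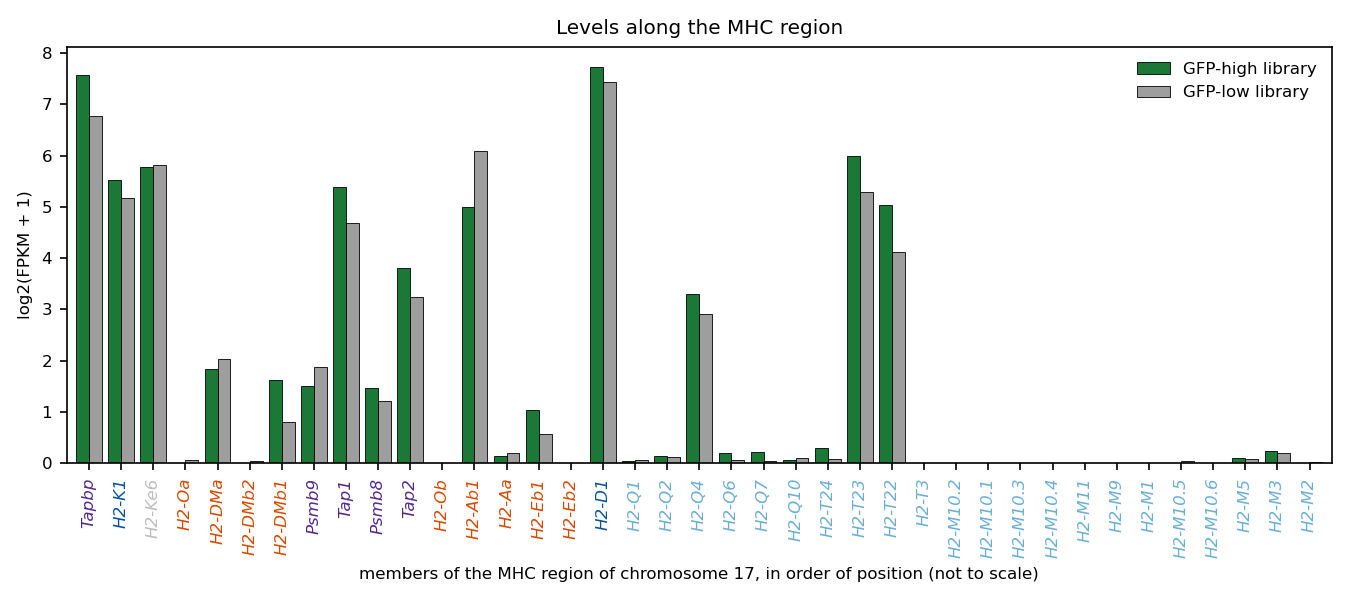
Bars give log2(FPKM + 1) in the GFPhigh and GFPlow libraries for the 39 genes of the MHC region of chromosome 17, in order of position and with names colored as in the plot of members by library. Levels alternate between high and near 0 along the region: Tapbp, H2-K1, H2-Ke6, Tap1, H2-Ab1, H2-D1 and H2-T23 are among the highest, and all 12 H2-M genes outside the H2-DM genes are at 0.18 FPKM or less.

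Other genes of the class I pathway, from a list of 17 that are not among the 62, leaned the same way. Of these, 16 reached 5 FPKM, 6 were called higher in GFPhigh and 0 in GFPlow cells, with a median log2 difference of 0.18. Over all entries that reached 5 FPKM, the shares were 9.48% and 8.9%. The FPKM of the 17 genes summed to 2194 in GFPhigh and 2052 in GFPlow cells, a ratio of 1.07, the same as over all genes. Irf1, an interferon-induced activator of class I genes, had 79.4 FPKM in GFPhigh and 34.8 FPKM in GFPlow cells, a fold of 2.28. Tapbpl (TAPBPR, a second peptide editor) had 8.69 and 4.04 FPKM, a fold of 2.15. Mr1, which presents vitamin metabolites, had a fold of 1.76, and the proteasome activator subunits Psme1 and Psme2 had 277 and 175 FPKM and 67.8 and 45.1 FPKM. The 6 called genes also included the interferon gamma receptor subunit Ifngr2, with a fold of 1.57. Nlrc5, the transactivator of class I promoters, was at 0.14 FPKM in GFPhigh and 0.15 FPKM in GFPlow cells. The kinase Jak1 had 68.3 and 67.2 FPKM, and the endoplasmic reticulum chaperones Calr and Canx were slightly higher in GFPlow cells, by 1.13-fold and 1.08-fold.

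Of the MHC class II pathway, 1 of 11 genes reached 5 FPKM, and it was called higher in GFPlow cells. H2-Ab1 (beta chain of I-A; ENSMUSG00000073421, chromosome 17, 34257689–34269419) had 67.4 FPKM in GFPlow and 30.9 FPKM in GFPhigh cells, 2.18-fold higher in GFPlow cells. Its obligate partner, the alpha chain H2-Aa, had 0.14 FPKM in GFPlow and 0.10 FPKM in GFPhigh cells, about 5 and 3 reads, against about 2456 and 845 reads on H2-Ab1. The level of H2-Ab1 was therefore not matched by that of the chain with which it forms a dimer, in either library. No annotated gene overlaps H2-Ab1, and none of its 50-nt windows occurs in a transcript of another gene. What the reads on H2-Ab1 come from was not tested, and gene-level FPKM do not show which of its exons they cover.

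The remaining class II genes were at 3.11 FPKM or less, and they lay on both sides. Cd74, the invariant chain, had 2.71 FPKM in GFPhigh and 1.74 FPKM in GFPlow cells, a fold of 1.56, and H2-Ab1 was 11.4 and 38.7 times Cd74. H2-Eb1, the beta chain of I-E, had 1.06 and 0.48 FPKM, about 42 and 25 reads, a fold of 2.21. H2-DMa and H2-DMb1, whose products exchange peptides on class II molecules, had 2.57 and 3.11 FPKM and 2.09 and 0.75 FPKM, which is 1.21-fold higher in GFPlow cells for H2-DMa and 2.79-fold higher in GFPhigh cells for H2-DMb1. Of the H2-DMb1 windows, 27.2% also occur in other transcripts, first in H2-DMb2. None of these 4 reached 5 FPKM.

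Ciita, the master activator of class II genes, was at 0.01 FPKM in GFPlow cells, about 2 reads, and listed at 0 in GFPhigh cells. H2-DMb2 (0.03 FPKM) and H2-Oa (0.04 FPKM) were likewise above 0 only in GFPlow cells, and H2-Eb2 and H2-Ob were listed at 0 in both. The median log2 difference over the 9 class II genes above 0 was -0.04, with 3 higher in GFPhigh and 6 in GFPlow cells. It turned to 0.12 when the mean FPKM had to reach 1, which left H2-Ab1, Cd74, H2-DMa and H2-DMb1. Of the 6 genes higher in GFPlow cells, H2-Aa, Ciita, H2-DMb2 and H2-Oa rest on about 5 reads or fewer. Of 12 further class II pathway genes in the table, 0 were called and 10 were higher in GFPlow cells, each under 1.5-fold or below 5 FPKM. Among them, the promoter-binding subunit Rfxap had 65.9 FPKM in GFPhigh and 97.5 FPKM in GFPlow cells, and the lysosomal protease Ctss, prominent in antigen-presenting cells, had 0.42 and 0.60 FPKM. Most fibroblast markers were, like H2-Ab1, higher in GFPlow cells: 5 of 6 were called there, against 8.9% of all entries that reached 5 FPKM. The FPKM of the 6 summed to 409 in GFPhigh and 1816 in GFPlow cells. The called folds ran from 1.62 for Lum to 5.02 for Col1a2, and Pdgfra was not called, at 1.42 and 1.46 FPKM. The part of these cells in the H2-Ab1 value was not tested.

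**Figure D3:**
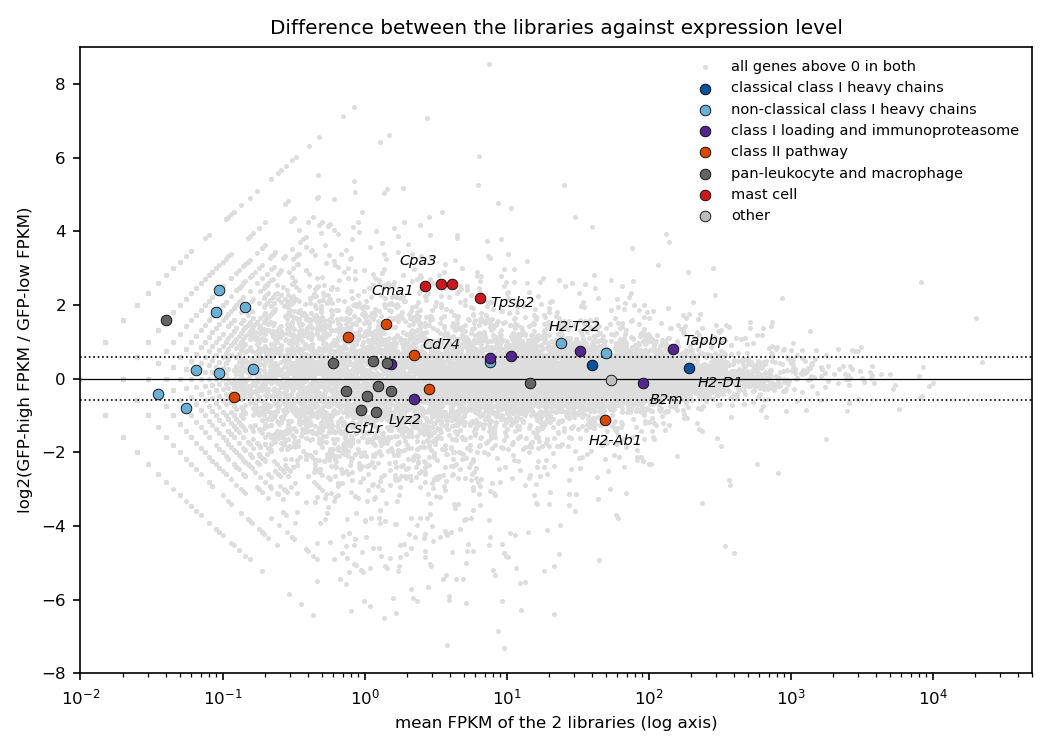
The log2 ratio of GFPhigh to GFPlow FPKM is plotted against the mean FPKM (log axis) for the 15928 genes above 0 in both libraries (gray) and for the antigen presentation and leukocyte genes, colored by group, with dotted lines at 1.5-fold. The 4 mast cell proteases lie between 2.18 and 2.57, class I genes at 5 FPKM or more lie between -0.12 and 0.96, and H2-Ab1 lies at -1.12.

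Pan-leukocyte and macrophage genes were low in both populations, and 0 of 12 were called. Ptprc (CD45), which marks leukocytes in general, had 0.06 FPKM in GFPhigh and 0.02 FPKM in GFPlow cells, about 8 and 4 reads. Laptm5, Coro1a and Cd52, also widely expressed in leukocytes, had 1.64 and 1.23 FPKM, 0.68 and 0.51 FPKM, and 0.30 and 0 FPKM in GFPhigh and GFPlow cells. The 0.30 FPKM of Cd52 corresponds to about 3 reads. All 4 were higher in GFPhigh cells, but at read numbers this low only Laptm5, with about 106 reads in each library, and Coro1a, with about 28 in each, rest on more than 10 reads.

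The macrophage genes mostly lay the other way. The complement subunits C1qa, C1qb and C1qc had 1.15, 1.36 and 0.87 FPKM in GFPhigh and 1.33, 1.73 and 1.20 FPKM in GFPlow cells, 1.16 to 1.38-fold higher in GFPlow cells. Within a library they kept similar proportions, C1qa being 0.846 and 0.769 times C1qb and C1qc 0.640 and 0.694 times C1qb. Csf1r, the receptor that macrophages need for survival, had 0.67 and 1.21 FPKM, about 81 and 196 reads, 1.81-fold higher in GFPlow cells. Lyz2 (lysozyme) had 0.84 and 1.57 FPKM, 1.87-fold higher in GFPlow cells, and 15.4% of its windows occur in Lyz1. Both would be called if the minimum were 1 FPKM. The signaling adaptors Fcer1g (0.66 and 0.83 FPKM) and Tyrobp (1.33 and 0.95 FPKM) were on opposite sides, at about 9 to 14 reads.

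Cd68, a lysosomal glycoprotein used as a macrophage marker, was the exception in level, at 14.03 FPKM in GFPhigh and 15.3 FPKM in GFPlow cells. The libraries differed by 1.09-fold, the GFPlow library being higher. The median log2 difference of the 12 genes was -0.12, with 5 higher in GFPhigh and 7 in GFPlow cells, and their FPKM summed to 23.6 and 25.9. Of 11 further macrophage markers in the table, 0 were called and 0 reached 5 FPKM, with Spi1 (PU.1) the highest in GFPhigh cells at 4.64 FPKM, against 2.37 FPKM in GFPlow cells. Of these markers, 6 were higher in GFPhigh and 5 in GFPlow cells, and their median log2 difference was 0.01. Over the 17283 genes above 0, 7883 were higher in GFPhigh and 9254 in GFPlow cells. In bulk libraries fewer cells of a type and less RNA per cell cannot be told apart.

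The lectin that defines Langerhans cells was not detected. Whether cells of this type that lack the lectin were present at P0 was not tested. Cd207 (langerin) was listed at 0 in both libraries. At the estimated depths 3 reads, used here as a floor, would be worth about 0.084 FPKM in GFPhigh and 0.063 FPKM in GFPlow cells. Of 7 further dendritic and Langerhans cell markers, Flt3 and Cd209a were also at 0 in both, and only Batf3 reached 1 FPKM, with 1.22 and 0.79 FPKM. Most lymphocyte markers were near 0 as well: Cd3d, Cd3g, Cd8a and Ms4a1 were listed at 0 in both libraries. Cd79a had 0.94 and 0.37 FPKM, and Cd4 had 0.22 and 0.59 FPKM. Lck, at 2.01 and 3.12 FPKM, was the exception and the highest of the T cell list. Of the natural killer cell list, Ncr1 and Klrb1c were at 0 in both libraries, and Nkg7 had 0.16 FPKM in GFPhigh and 0 in GFPlow cells.

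Genes of mast cell granules had the largest folds of the 30 genes at 1 FPKM or more. Tpsb2 (tryptase beta 2; ENSMUSG00000033825, chromosome 17, 25366305–25369098) had 10.7 FPKM in GFPhigh and 2.35 FPKM in GFPlow cells, about 313 and 92 reads, a fold of 4.53. Mcpt4 (a chymase; ENSMUSG00000061068, chromosome 14, 56059629–56062313) had 7.11 and 1.20 FPKM, about 174 and 39 reads, a fold of 5.93. Cpa3 (mast cell carboxypeptidase; ENSMUSG00000001865, chromosome 3, 20215620–20242181) had 5.89 and 0.99 FPKM, about 199 and 45 reads, a fold of 5.95. Cma1 (a chymase; ENSMUSG00000022225, chromosome 14, 55941451–55944675) had 4.55 and 0.80 FPKM, about 109 and 26 reads, a fold of 5.69, and was not called because it stayed under 5 FPKM.

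The 4 proteases were thus all at least 4-fold higher in GFPhigh cells, a size reached there by 1.59% of the 12935 entries with 1 FPKM in either library. This 4-fold mark was chosen after the values were seen. With 1 added to each FPKM, all fell below it, at 3.08 for Cma1, 3.46 for Cpa3, 3.69 for Mcpt4 and 3.48 for Tpsb2. Mcpt4 and Cma1 kept nearly the same proportion to Cpa3 in GFPhigh and GFPlow cells, at 1.21 times in each and at 0.772 and 0.808 times. Tpsb2 shifted more, from 1.81 times Cpa3 in GFPhigh to 2.37 times in GFPlow cells. At most 5.48% of the windows of these genes occur in transcripts of other genes.

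The receptor genes of mast cells did not accompany the proteases at a measurable level. Fcer1a, the IgE-binding chain, had 0.05 FPKM in GFPhigh cells, about 1 read, and was listed at 0 in GFPlow cells. Ms4a2, the receptor's beta chain, was listed at 0 in GFPhigh and had 0.01 FPKM in GFPlow cells. Fcer1g, the gamma chain, which macrophages share, had the values given above. At these depths 3 reads would be worth about 0.139 FPKM of Fcer1a in GFPhigh and 0.104 FPKM in GFPlow cells, so that no difference in these chains was detectable.

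Of 8 further mast cell markers, 0 were called, and their median log2 difference was 0.14. Hdc, the enzyme that makes histamine, had 3.97 FPKM in GFPhigh and 0.38 FPKM in GFPlow cells, a fold of 10.45, and the tryptase Tpsab1 had 2.86 and 0.82 FPKM, a fold of 3.49. The receptor genes Il1rl1 (0.42 and 0.18 FPKM) and Mrgprb2 (0.05 and 0.03 FPKM), the transcription factor Gata2 (0.39 and 0.45 FPKM) and the amine transporter Slc18a2 (0.06 and 0.10 FPKM) were low. Kit, which melanocytes and other cells also express, had 31.4 and 26.2 FPKM. In the mast cell list, the granule proteases and Hdc thus had the widest gaps in FPKM relative to their level.

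Most markers of the erythroid, endothelial and neutrophil lists were, like the mast cell proteases, higher in GFPhigh cells. This did not hold for all blood cells: of the T cell list, 1 gene was higher in GFPhigh and 3 in GFPlow cells. Of the B cell list, 2 were higher in GFPhigh and 1 in GFPlow cells. All 6 erythroid genes were higher in GFPhigh cells, 3 of 6 were called, and their FPKM summed to 118 in GFPhigh and 41.0 in GFPlow cells. Over all entries, 4.72% were called higher in GFPhigh cells, and over those that reached 5 FPKM, 9.48%. Hba-a1, a hemoglobin alpha chain, had 36.6 and 12.5 FPKM. Of 6 endothelial markers, 5 were higher in GFPhigh cells and 1 was called, Pecam1 at 5.31 and 2.38 FPKM, with sums of 16.7 and 9.08 FPKM. Tek went the other way, with 0.94 FPKM in GFPhigh and 1.48 FPKM in GFPlow cells. Of 6 neutrophil markers, 5 were higher in GFPhigh cells and 1 was called, S100a9 at 6.66 and 3.41 FPKM. Ly6g had 0.05 FPKM in GFPhigh and 0 in GFPlow cells and Elane 0 and 0.04 FPKM. In the endothelial and in the neutrophil list, the called gene was the only 1 that reached 5 FPKM. The part of these cells in the differences of the mast cell and class I genes was not tested.

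**Figure D4:**
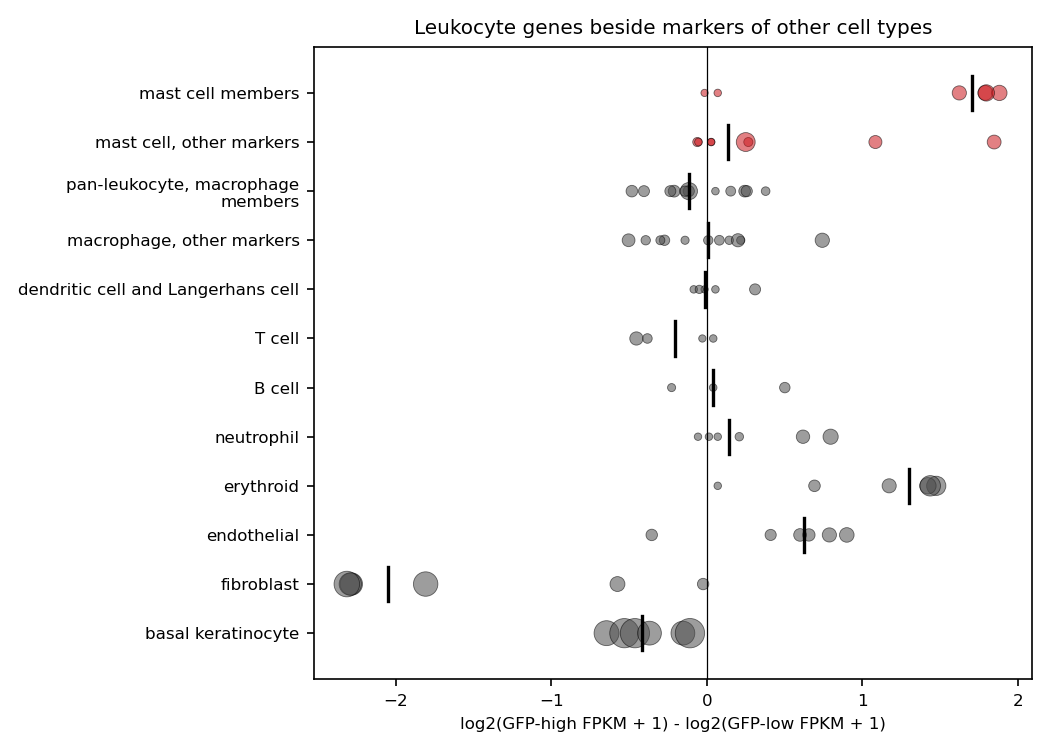
Each point is a gene above 0 in at least 1 library, placed by log2(GFPhigh FPKM + 1) minus log2(GFPlow FPKM + 1), with a larger point for a higher FPKM and a bar at the median of each list. The mast cell proteases and Hdc stand to the right, the median of the mast cell members is 1.71 against -0.12 for the pan-leukocyte and macrophage members, erythroid markers have a median of 1.30 and fibroblast markers of -2.05.

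H2-Ke6 (Hsd17b8) carries the H2- prefix because of its place in the region, and encodes an enzyme of steroid and fatty acid metabolism. It had 53.9 FPKM in GFPhigh and 55.4 FPKM in GFPlow cells, which differed by 1.03-fold. It is counted among the 62 genes and among the 16 at 5 FPKM, and was called in neither population.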

How the data were processed

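RNA from FACS-sorted cells was made into stranded mRNA libraries and sequenced as single-end 50-nt reads. Per the labels and methods, the authors trimmed reads with Trimmomatic 0.36, mapped them to mm10 with GSNAP, and deposited FPKM from Cufflinks 2.2.1, rounded to 2 decimals. The columns are named means, but the labels give 1 library per population, so each FPKM was read as 1 library. The deposited table also holds the authors' signed fold score, which was not used. The mouse strain is not given in the labels, and the paper describes its mice as being of mixed backgrounds. MHC genes are polymorphic, so that reads of another haplotype may map less well to the reference.

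Of 21628 entries, 17 without a number and 21 typed as non-coding in GENCODE M21 were left out, leaving 21590. Folds, calls (5 FPKM in the enriched library, 1.5-fold) and medians of log2(FPKM + 1) were computed with Python 3.11.15, pandas 2.3.3 and numpy 2.4.6, and the procedure was tested on simulated data. No test was run across genes. Depth was sought between low FPKM (0.05 to 0.3) and exon length less 200 nt in genes of 1 transcript, and 51.0% of 341 GFPhigh and 47.5% of 324 GFPlow values lay within 0.15 of a whole read at the chosen depth, against a median over the depths searched of 28.4% and 28.7%. Reads per gene used the longest coding transcript, and no whole reads were recovered, no count test was run and no counting interval is given. Windows of 50 nt shared with transcripts of non-overlapping genes marked FPKM as uncertain from 20%. Promoter windows are RefSeq's for GRCm38.p6. Gene positions are GENCODE M21 (mm10).

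The members and lists were chosen with earlier results of these data known. Values are given for members with at least 1 FPKM in either library and for every leukocyte member. Among other pathway genes, all those called were named. Among marker genes, not all those called were named. The marker genes named, and the pathway genes named without a call, were chosen once their values were known. Alternatives comprised other FPKM and fold minimums, pseudocounts of 1 and 0.1, division of each library by its FPKM sum (TPM), scaling of GFPlow by the median ratio of 0.973, and leaving out genes with shared windows.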

Additional observations from a re-analysis of the deposited data

How the results depend on the processing

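With 1 library per population, no result has a replicate error, and no paired analysis was possible because each population has 1 library. The count of genes called higher in GFPhigh cells, 8, was 5 with 5 FPKM in both libraries (the mast cell genes were left out), 3 with a 2-fold minimum and 18 with no FPKM minimum, and the count higher in GFPlow cells, 1, was 3 with a minimum of 1 FPKM and 10 with none. Both counts stayed within 1.5 times under the other alternatives, at 6 to 12 and at 1. The median log2 difference of class I heavy chains (0.13) was 0.29 with a pseudocount of 0.1, 0.12 as TPM, 0.39 when the mean FPKM had to reach 1, and 0.01 without genes that share 20% of their windows. That of loading and immunoproteasome genes (0.49) was 0.55 with a pseudocount of 0.1, 0.40 as TPM and 0.52 with median-ratio scaling. That of class II genes (-0.04) was -0.26 with a pseudocount of 0.1, -0.05 without genes of shared windows, and reversed to 0.12 over genes whose mean FPKM reached 1, where fewer genes entered. That of pan-leukocyte and macrophage genes (-0.12) was -0.16 with a pseudocount of 0.1, -0.17 as TPM and -0.09 with median-ratio scaling. That of mast cell genes (1.71) was 2.25, 1.63 and 1.73 in the same order and 1.79 over genes whose mean FPKM reached 1. Of 90 folds of 30 genes under 3 alternatives, 87 kept their direction and whether the gene was called. Psmb10 reached a fold of 1.51 with median-ratio scaling, and Tap2 lost its call as TPM (1.44) and with 1 added to each FPKM (1.48). TPM lowers every log2 ratio by 0.10. The planned check of shared windows on the genome used transcripts in its place, a choice made after seeing the data.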
